A study of Danio rerio with 416 samples.

Results

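The hairy-related her genes and hes6 encode basic helix-loop-helix transcription factors. Taken by name, 8 of them were followed in single cells of zebrafish embryos at 50% epiboly, and the files list them as HER1, HER7, HER11, HES6, HER5, HER3, HER6 and HER9. Each has 1 of the 25208 gene rows of the full-length table and 1 of the 19205 rows of the UMI table (unique molecular identifiers, which count molecules). At this stage the blastoderm has spread over the upper yolk, and the future mesoderm and endoderm are being set apart at its edge, the margin. The values below show how broadly each of the 8 transcripts was found and how levels varied with the likeness of cells to the margin. They also set MZoep against wild-type cells.

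MZoep embryos carry the allele tz57 and have neither maternal nor zygotic function of one-eyed pinhead (tdgf1), a co-receptor for Nodal ligands. Their full-length SMART-seq2 libraries were compared with those of wild-type TLAB embryos. The kept MZoep cells numbered 79, 80, 61 and 25 in library preparation batches p1 to p4, and the kept wild-type cells 3, 14, 18 and 12. Batch p0 held MZoep cells only, 86 of them kept, with 5-prime libraries that carry UMIs. Cells were picked by hand from dissociated embryos without yolk, and the labels name neither embryo nor clutch. Genotype, strain background and clutch therefore cannot be told apart. Each genotype counts as 1 sample, cells are not replicates, and no test between genotypes was made.

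Proteins of this family bind DNA and mostly repress transcription, and many of their genes respond to Notch signalling. In zebrafish, her1 and her7 are core genes of the segmentation clock, the oscillator that later times somite formation, and hes6 encodes a partner of the clock proteins. The genes her5 and her11 act at the boundary of midbrain and hindbrain, her3 restrains neuronal differentiation in the neural plate, and her6 and her9 act in neural progenitors. In RefSeq assembly GRCz12tu, her1 and her7 are neighbours on chromosome 5 and her11 and her5 on chromosome 14, with 0 genes between the members of either pair.

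Full-length cells had a median of 7346 genes at FPKM 1 or more in MZoep and 6964 in wild type, and 5-prime cells had between 29246 and 73231 UMIs. FPKM is the number of fragments per kilobase of transcript scaled to all mapped fragments, and the sources used here do not give the read depth behind it. Marker lists differed between the genotypes: the 5 dorsal margin genes had a median log2 ratio of -2.48, MZoep over wild type, the 8 margin genes -0.86 (4 lower and 2, eve1 and cdx4, higher by 2-fold or more), and the 5 enveloping layer genes 1.93. The mutated gene, tdgf1, averaged 51.2 FPKM in MZoep and 45.4 FPKM in wild type, so its transcript level does not check the genotype labels.

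The 8 genes covered a wide range of levels, with hes6, her7 and her5 at the top in both genotypes. Batch-weighted means of hes6 were 52.7 FPKM in MZoep and 54.1 FPKM in wild type. Those of her7 were 38.1 FPKM in MZoep and 40.6 FPKM in wild type, and those of her5 were 20.6 and 9.75 FPKM. Next came her1, with 7.03 FPKM in MZoep and 9.25 FPKM in wild type. The lower 3 of the compared genes were her3 at 4.63 FPKM in MZoep and 1.67 FPKM in wild type, her6 at 4.21 and 3.97 FPKM, and her11 at 2.75 and 3.48 FPKM.

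Not all neighbours in that order were separate. In MZoep the batch means of hes6, 41.6 to 71.4 FPKM, overlapped those of her7, 28.6 to 52.5 FPKM. Those of her5, 12.7 to 22.5 FPKM, lay below both, and those of her1, 2.96 to 8.52 FPKM, lay below her5. The batch means of her1, her3, her6 and her11 overlapped one another. In wild type her5 and her1 had nearly the same mean.

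**Figure D1:**
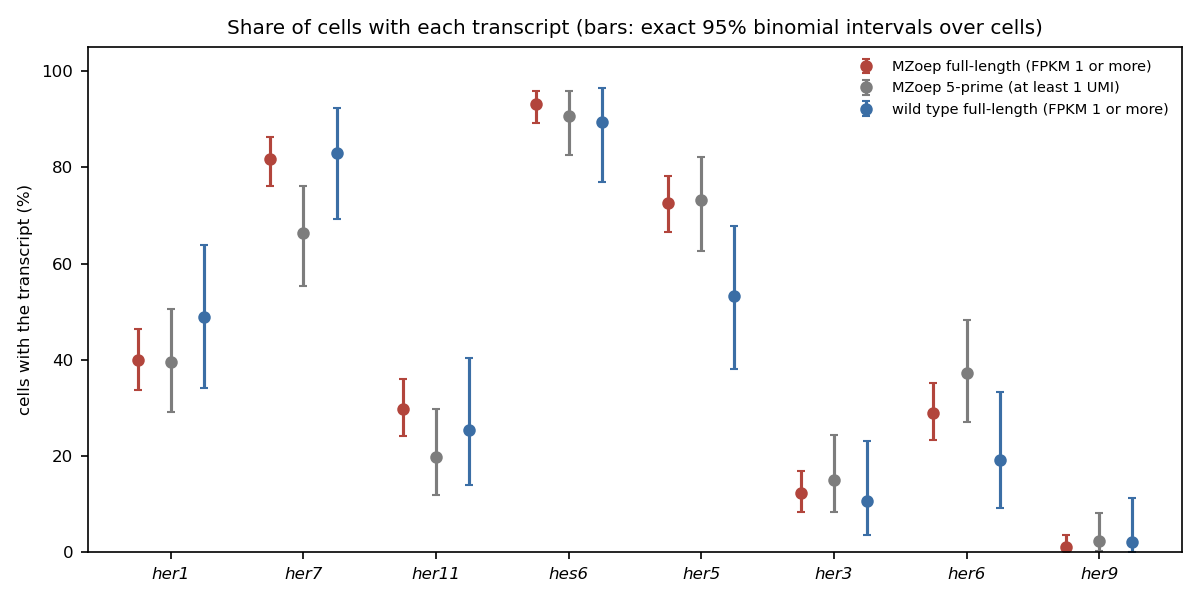
Share of cells with each transcript (y axis, %), counted at FPKM 1 or more in full-length cells and at 1 UMI or more in 5-prime cells; points are shares and bars exact 95% binomial intervals over cells. Transcripts of hes6, her7 and her5 were in more than 50% of cells of all 3 kinds, and those of her9 in at most 2.33%.

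The 3 genes with the highest means were also the broadest. A cell was counted as holding a transcript at FPKM 1 or more, and the intervals given are exact binomial intervals that cover counting error over cells only. Transcripts of hes6 were in 93.1% of MZoep cells and 89.4% of wild-type cells, and those of her7 in 81.6% and 83% of them. For her5 the share was 72.7% in MZoep (95% interval 66.6 to 78.1) and 53.2% in wild type (38.1 to 67.9). The wild-type interval overlapped that of her1 (34.1 to 63.9), and at FPKM 5 or more her5 was in 38.3% of wild-type cells.

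The other genes were patchy. The share of cells with her1 was 40% in MZoep and 48.9% in wild type. It was 29.8% in MZoep and 25.5% in wild type for her11, and 29% and 19.1% for her6. Transcripts of her3 were in 12.2% of MZoep cells and 10.6% of wild-type cells. Cells that held her3 had a median of 25.9 FPKM in MZoep (30 cells) and 18.1 FPKM in wild type (5 cells). In 5-prime cells, 7 of the 13 cells with her3 had a single UMI, and 1 cell held 30% of its UMIs.

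The transcript of her9 was nearly missing. It reached FPKM 1 in 3 MZoep cells (1.22%) and in 1 wild-type cell (2.13%), and 2 UMIs were counted in all 86 5-prime cells. Its means were 0.169 FPKM in MZoep and 0.352 FPKM in wild type, and no ratio was formed. Too few cells held it for any statement on where it was expressed.

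The 5-prime cells, a separate set of MZoep libraries, ordered the genes by breadth in a similar way. At least 1 UMI was present in 90.7% of cells for hes6, 73.3% for her5 and 66.3% for her7. The share was 39.5% for her1, 37.2% for her6, 19.8% for her11 and 15% for her3. Summed over cells, hes6 had 592 UMIs, her7 456 and her5 315, while her6 had 68, her11 36 and her3 30. A UMI marks a molecule, so these sums need no scaling by transcript length. They rank the genes by molecules counted only, as differences in capture between genes were not tested. The median cell held 4 of the 8 transcripts among MZoep full-length, MZoep 5-prime and wild-type cells alike.

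**Figure D2:**
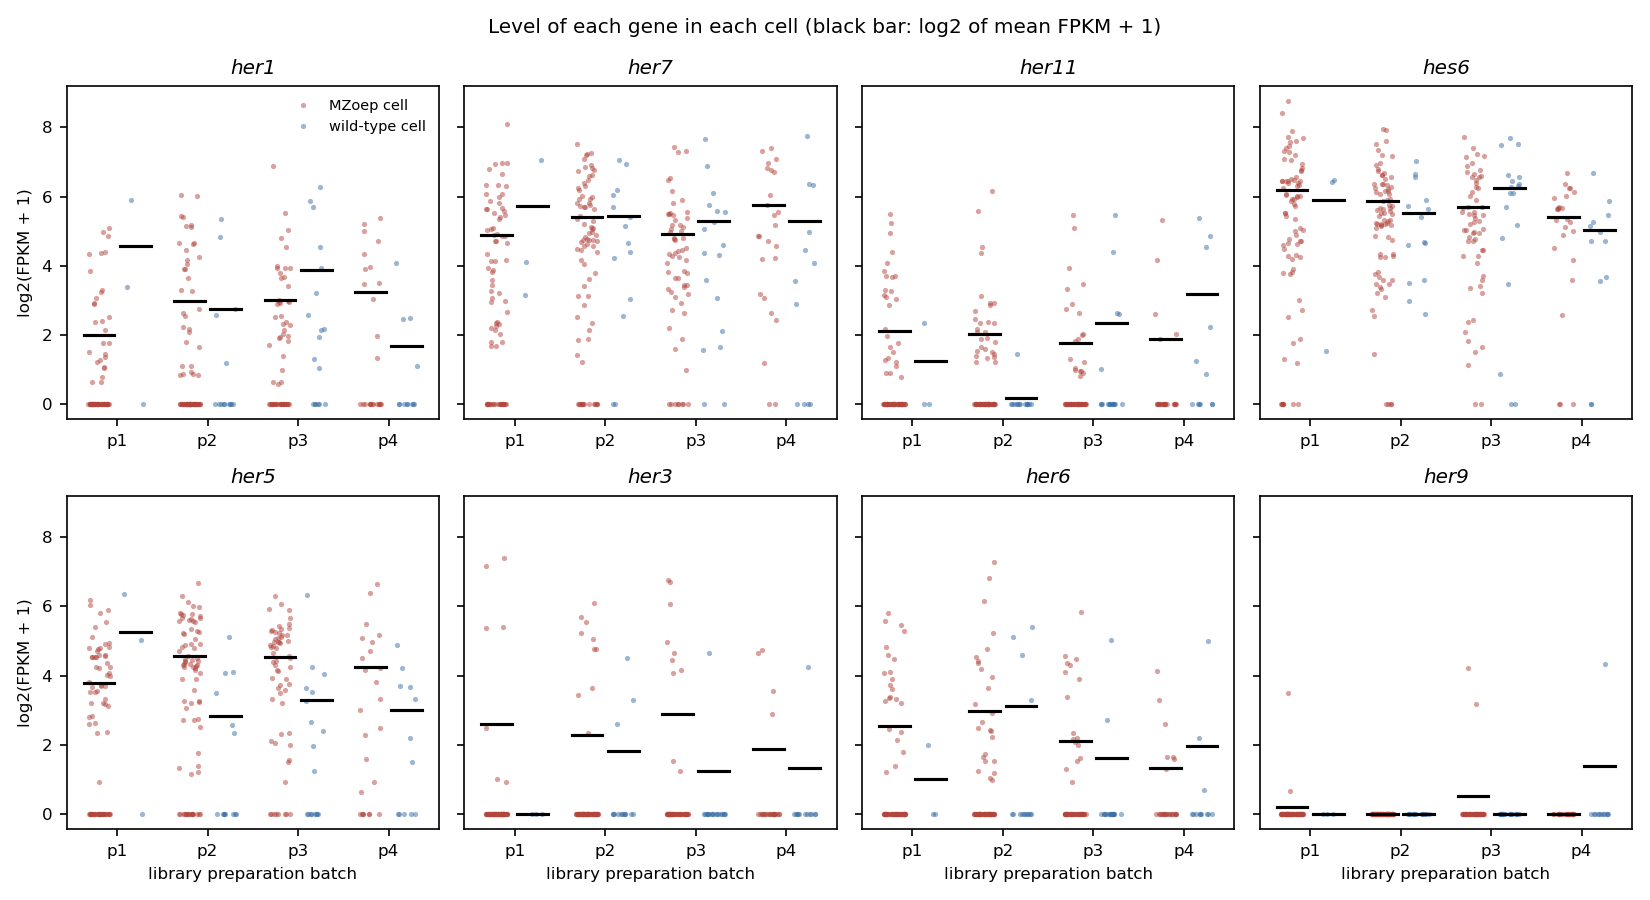
log2(FPKM + 1) of each gene (y axis) in every kept full-length cell by library preparation batch (x axis), with MZoep cells left of wild-type cells in each batch; black bars are the log2 of the mean FPKM plus 1. Values of the 2 genotypes overlap in every panel, and the points at 0 show how patchy her1, her11, her3 and her6 are beside hes6.

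Between the genotypes, her5 and her3 were higher in MZoep by 2-fold or more and 0 of the 7 compared genes were lower by as much. Of all 15831 genes compared, 5.15% were higher in MZoep by that measure and 2.54% lower. The measure is the log2 ratio of the batch-weighted mean FPKM plus 1, and its median over all genes was 0.12. Both calls lay close to the 2-fold line. Relative to the median of all genes, her5 was at 0.89 and her3 at 0.96, both under 2-fold.

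The lowest value of her5 was 0 in MZoep cells, the median 13.9 FPKM and the highest 101.2 FPKM, and in wild-type cells the lowest was 0, the median 1.84 FPKM and the highest 80.3 FPKM. The median was thus higher in MZoep while the ranges overlapped almost fully. The log2 ratio was 1.01. Within batches it was 1.73 in p2, 1.26 in p3 and 1.23 in p4, and -1.48 in p1, where wild type has 3 cells. The ratio was under 2-fold without p2 (0.73), without p3 (0.86) or without p4 (0.96), and 1.41 without p1.

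With no filter on cells the ratio of her5 was 2.41. Of the 36 full-length cells left out for few genes, 1 held her5, an MZoep cell of p2 with 51 genes and a her5 value of 9179 FPKM, and the others were at 0. The correlation of her5 with the number of genes found in a cell was 0.14 in MZoep and 0.31 in wild type. Its correlation with the enveloping layer score, whose 5 genes were all higher in MZoep, was -0.03 in MZoep and 0.21 in wild type. The summed level of those 5 genes ran from 0 to 7690 FPKM with a median of 106.7 in MZoep cells, and from 0 to 334 FPKM with a median of 37.8 in wild-type cells. The part of gene number and of enveloping layer cells in the her5 ratio was not tested.

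For her3 the lowest value and the median were 0 in both genotypes, and the highest was 167.2 FPKM in MZoep against 24.3 FPKM in wild type. The shares of positive cells, given above, were close, and the highest cells were all in MZoep. Positive cells numbered 30 in MZoep and 5 in wild type, so the highest values come from unequal numbers of cells. All 4 compared neural ectoderm markers were higher in MZoep too (median log2 ratio 0.66), with sox2 at 2.24, against 60.6% of all compared genes. The marker otx2b, too sparse to compare, averaged 0.33 FPKM in MZoep and 0.54 FPKM in wild type. All 5 ventral ectoderm genes (median 0.53) and all 5 enveloping layer genes (1.93) were also higher. The part of these markers in the her3 ratio was not tested. The log2 ratio of her3 was 1.08. It was 0.46 in p2, 1.64 in p3 and 0.55 in p4, and none of the 3 wild-type cells of p1 held the transcript. Without p3 the ratio was 0.69, without p1 it was just under 2-fold, and as a difference of mean log2 values it was 0.22. The highest MZoep cell alone supplied 14.4% of the MZoep signal, and the highest wild-type cell 31.1% of the wild-type signal.

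The clock genes and hes6 stood at similar levels in both genotypes. Values of her1 had a median of 0 in either genotype and a highest of 117.9 FPKM in MZoep against 76.3 FPKM in wild type, with a log2 ratio of -0.35. Values of her7 had a median of 21.5 FPKM and a highest of 273.3 FPKM in MZoep, against 20.2 and 213.3 FPKM in wild type, with a ratio of -0.09. For hes6 the median was 43.4 FPKM and the highest 431.3 FPKM in MZoep, against 41.3 and 204.6 FPKM in wild type, and the ratio was -0.04. The genotypes overlapped for all 3 genes.

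Batches disagreed in direction for each of these genes. The ratio of her1 was -2.57 in p1, 0.25 in p2, -0.86 in p3 and 1.58 in p4, and that of hes6 was 0.29, 0.34, -0.52 and 0.39. The ratio of her7 lay between -0.84 and 0.45 over the batches. The ratios of her11 (-0.26) and her6 (0.07) had batch values of both signs as well, and with median scaling that of her6 was -0.68. No test was made of these differences.

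**Figure D3:**
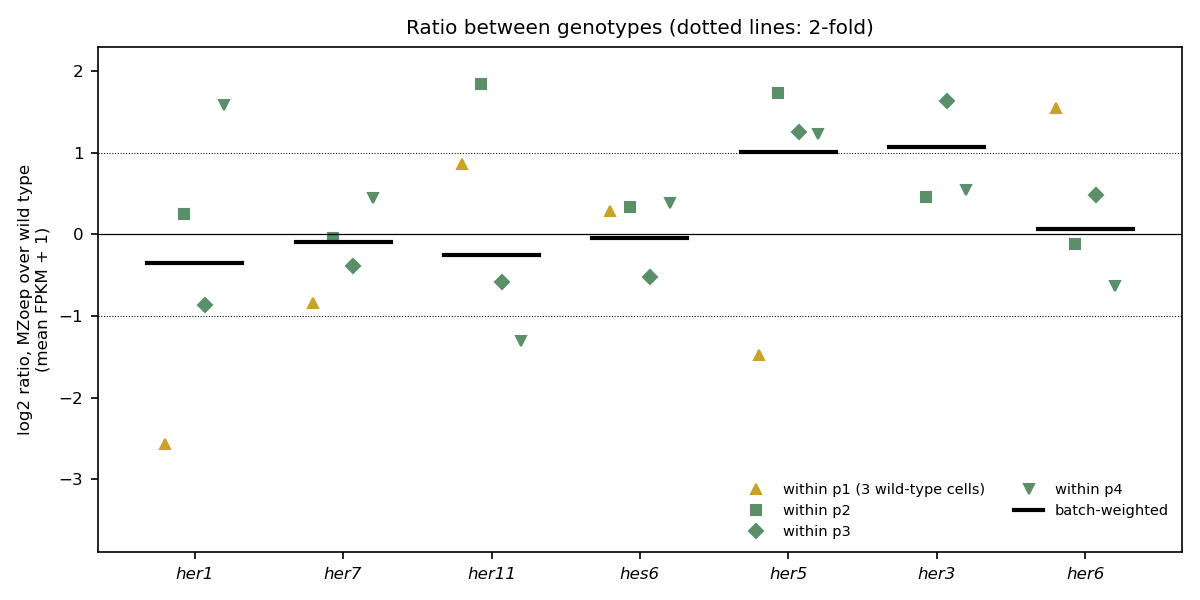
log2 ratio of mean FPKM plus 1, MZoep over wild type (y axis), for the 7 compared genes; bars give the batch-weighted ratio and symbols the ratio within each batch. The bars of her5 (1.01) and her3 (1.08) lie at the dotted 2-fold line and those of the other genes between -0.35 and 0.07, with batch values of both signs.

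Likeness of a cell to the margin was read from a score, the mean log2 level of tbxta, tbx16, wnt8a, mixl1, aplnrb, osr1, eve1 and cdx4. None of these is a her or hes gene. Cells were ranked by it within genotype and batch and cut into tertiles, which are ranges of a score and not cell types. The upper tertile had a median score of 3.81 in MZoep and 4.34 in wild type, so the tertiles of the genotypes do not cover equal ranges. In MZoep the median number of genes per cell was 7154 in the upper and 7304 in the lower tertile, and the median UMI count of 5-prime cells was 45168 in the upper and 46780 in the lower.

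The genes her1, her7 and hes6 were higher in the upper than in the lower tertile of MZoep by 2-fold or more, as were 0.987% of all genes, and her3 was lower, as were 1.29%. In 5-prime cells her1, her7, hes6 and her6 were higher (7.01% of all genes) and her11 lower (9.09%), while her3 had 0 UMIs in the upper tertile and no ratio was formed. The her6 call in 5-prime cells was lost under all 4 alternatives (0.28 to 0.91), and that of her11 with a score of tbxta and tbx16 alone (-0.25). In wild type her1, hes6 and her6 were higher (7.83%) and her3 lower (12%). For her3 this is 1 gene of 7, near the share of all genes, and its ratio changed sign with tbxta and tbx16 alone (0.48). The genes her1 and hes6 were thus called higher in all 3 sets of cells, and her7 in wild type was just short of it (0.87) and past it with tbxta and tbx16 alone (2.1).

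The gene her1 was patchy and higher in cells with a high margin score, but not limited to them. In MZoep its mean was 12 FPKM in the upper tertile and 2.2 FPKM in the lower, and it was in 53 of 80 and 20 of 80 cells. The log2 ratio was 2.02, with 1.35, 1.89, 2.05 and 4.16 in p1 to p4, and 0.85 with a pseudocount of 10 FPKM, under 2-fold. In wild type it was in 15 of 15 cells of the upper tertile and 5 of 15 of the lower, with 19.9 and 1.73 FPKM and a ratio of 2.93. In the middle tertile the mean was 3.49 FPKM in MZoep, in 29.4% of cells, and 5.62 FPKM in wild type, in 17.6% of cells.

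The 5-prime cells gave the same direction for her1 from a separate set of libraries. Its level was 100.8 counts per 1000000 UMIs (CPM; exact 95% Poisson interval 84.2 to 119.6) in the upper tertile, against 9.31 CPM (4.81 to 16.3) in the lower. The intervals do not overlap, and they cover counting error only.

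The genes her7 and hes6 were broad and highest in the upper tertile. In MZoep her7 had a mean of 48.5 FPKM in the upper tertile and 19 FPKM in the lower (log2 ratio 1.31), and was in 75 and 57 of 80 cells. For hes6 the means were 96.7 FPKM in the upper tertile and 39.4 FPKM in the lower (1.27), in 79 and 68 of 80 cells. In the middle tertile the mean of her7 was 38.1 FPKM and that of hes6 41.2 FPKM, close to the lower tertile for hes6. Both genes were higher in the upper than in the lower tertile in all 4 batches. Most MZoep full-length cells of the lower tertile held these transcripts, unlike that of her1. In the lower tertile of 5-prime cells her7 was in 13 of 28 cells.

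In wild type the means of hes6 were 78.7 FPKM in the upper tertile and 35.8 FPKM in the lower (log2 ratio 1.12). Those of her7 were 57.7 and 31 FPKM (0.87), while its share was 80% in the upper and 93.3% in the lower tertile. The level and the share of her7 thus went opposite ways in 15 cells a tertile. In 5-prime cells her7 was in 92.9% of the upper and 46.4% of the lower tertile (log2 ratio of levels 1.39), and hes6 had 251.9 CPM in the upper and 86.9 CPM in the lower (1.53).

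**Figure D4:**
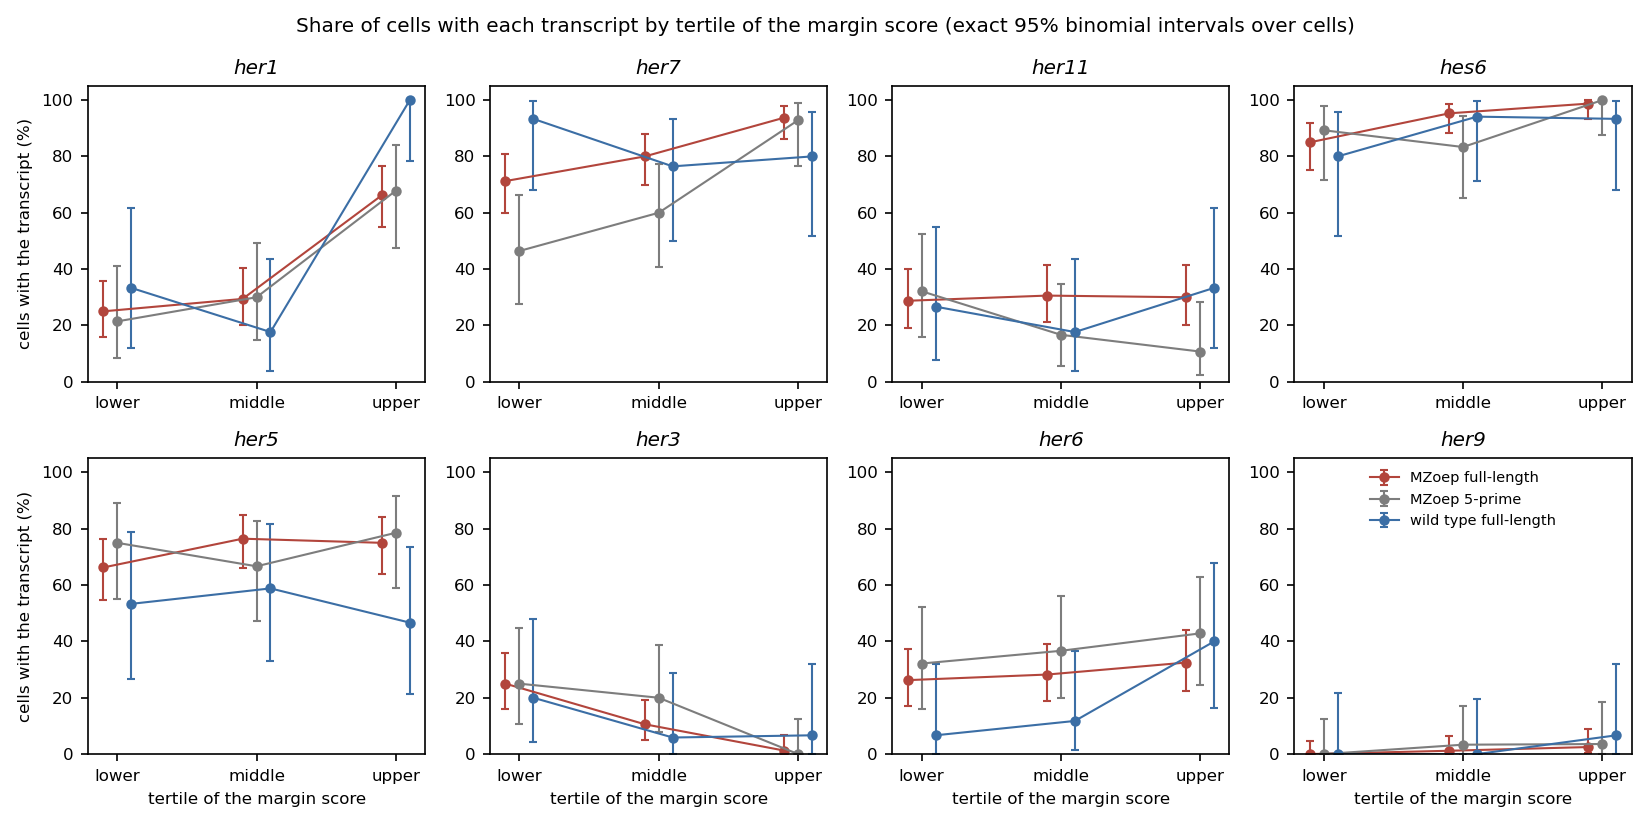
Share of cells with each transcript (y axis, %) in the lower, middle and upper tertile of the margin score (x axis) for MZoep full-length, MZoep 5-prime and wild-type full-length cells; bars are exact 95% binomial intervals over cells. In MZoep the share with her1 is 25%, 29.4% and 66.3% in the lower, middle and upper tertile, and that with her3 is 25%, 10.6% and 1.25%.

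The gene her3 ran the other way in MZoep full-length cells. In MZoep it was in 1 of 80 cells of the upper tertile and 20 of 80 of the lower, with means of 0.319 and 12.3 FPKM and a log2 ratio of -3.34. The mean was lower in the upper tertile in all 4 batches. In 5-prime cells the upper tertile had 0 UMIs in 28 cells. That allows a share of cells with a UMI of up to 12.3% by the exact 95% interval. It sets no limit on cells that express the gene. The lower tertile had 9 UMIs in 7 of 28 cells (6.98 CPM), and the middle 21 UMIs in 6 of 30 cells (14.2 CPM). The level in 5-prime cells was thus highest in the middle tertile, where 1 cell held 9 UMIs. In wild type 1 of 15 cells of the upper and 3 of 15 of the lower tertile held her3, and the wild-type call rests on these few cells.

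A second score, the mean log2 level of the neural ectoderm genes sox2, sox3, otx2b, zic2b and irx7, was added after the margin values had been seen. In MZoep her3 was in 19 of 80 cells of its upper tertile and 4 of 80 of its lower, with 11.4 and 1.28 FPKM (log2 ratio 2.44). Within MZoep it was the 1 gene of the family higher by 2-fold or more in the upper than in the lower tertile, as were 1.18% of all genes. By the same contrast her1 (-1.02) and her6 (-1.33) were lower (1.69% of genes). In 5-prime cells her3 was in 10 of 28 cells of the upper tertile and 1 of 28 of the lower, with 18.3 and 0.781 CPM (3.44; 7.09% of genes), and her1 and her5 were lower (10.2%). In wild type her3 was in 3 of 15 cells of the upper tertile and 1 of 15 of the lower (1.48; 13.6% of genes), and her6, her11 and hes6 were lower (6.93%). The wild-type call of her3 rests on 4 cells, and 1 gene in 7 is near the share of all genes. With 2 equal parts in place of tertiles, her3 stayed past 2-fold (1.95 in MZoep and 3.28 in 5-prime cells), and her1 (-0.67) and her6 (-0.90) in MZoep did not.

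The genes her5 and her11 showed no 2-fold difference between margin tertiles in MZoep full-length cells. The means of her5 were 19.4 FPKM in the upper margin tertile and 17.2 FPKM in the lower (log2 ratio 0.17), in 75% and 66.3% of cells, and those of her11 were 3.68 and 2.38 FPKM (0.47). In 5-prime cells her5 had 50.4 CPM in the upper tertile and 86.9 CPM in the lower (-0.77), and her11 had 5.43 and 16.3 CPM (-1.43) from 7 and 21 UMIs. The full-length and 5-prime cells of MZoep thus differ in sign for both genes. In wild type the ratio was -0.21 for her5 and -0.55 for her11.

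Across cells, her1, her7 and hes6 went together to a modest degree. With ranks taken within batch, the Spearman correlation over MZoep full-length cells was 0.32 for her1 and her7, 0.27 for her1 and hes6, and 0.24 for her7 and hes6. Over the 86 5-prime cells it was 0.54, 0.61 and 0.48 for these pairs, and over the 47 wild-type cells 0.03, 0.14 and 0.18. These values are descriptions over cells that share library preparation batches and can differ in depth. Transcripts of her7 were in 94.9% of MZoep cells with her1 and 72.8% of those without, and in 91.2% and 50% of 5-prime cells with and without her1. In wild type they were in 20 of 23 cells with her1 (87%) and 19 of 24 without (79.2%), with overlapping binomial intervals. For the neighbours her5 and her11 the correlation was 0.03 in MZoep, against 0.32 for the neighbours her1 and her7.

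**Figure D5:**
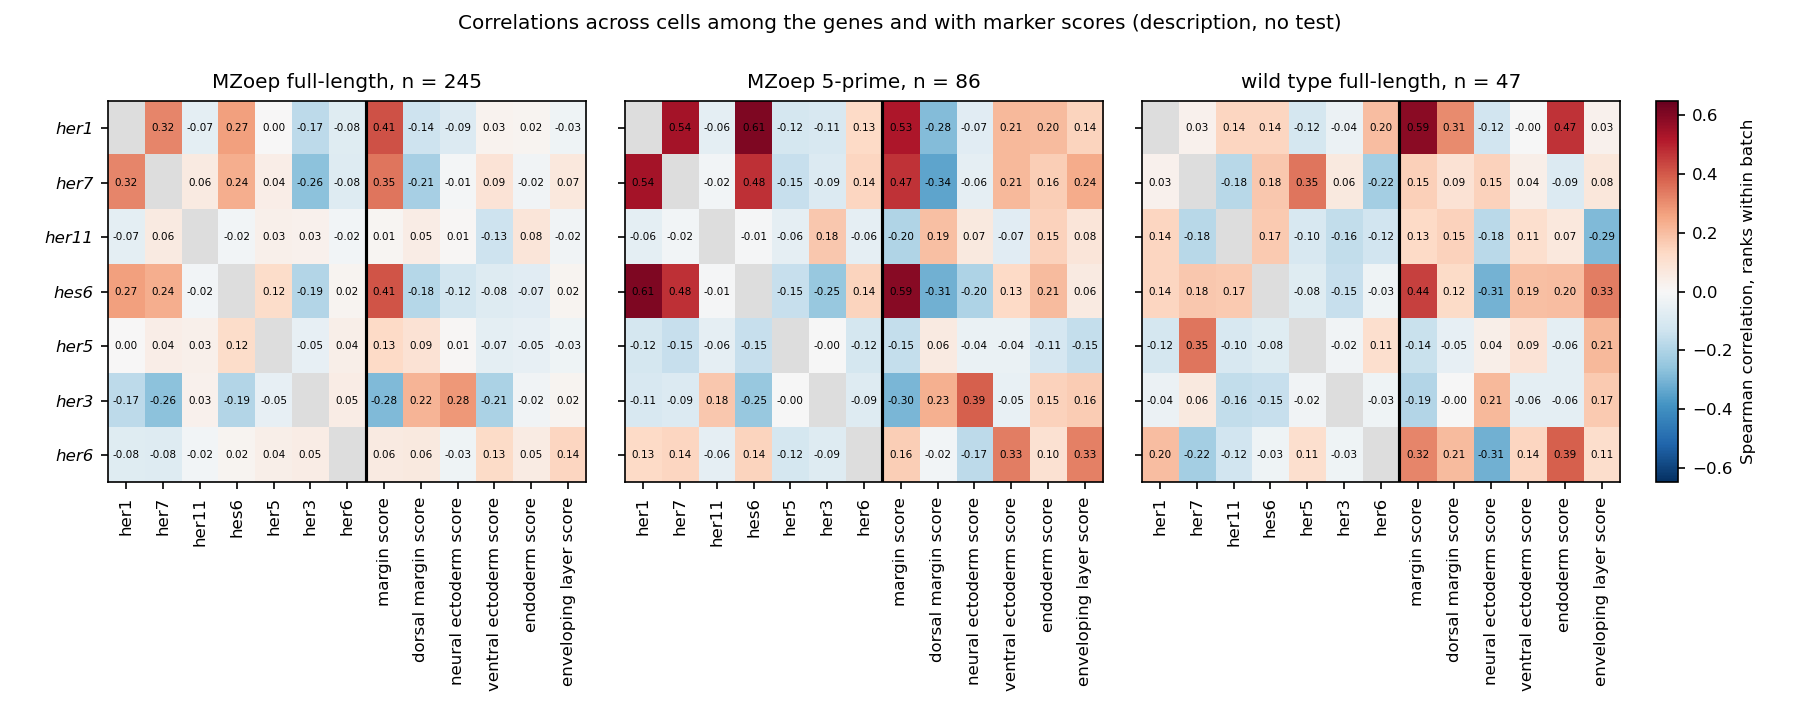
Spearman correlation, with cells ranked within batch, between pairs of the 7 compared genes (left of the black line) and between each gene and marker scores (right of it), for MZoep full-length, MZoep 5-prime and wild-type full-length cells. In MZoep full-length cells the margin score stands at 0.41 with her1, 0.35 with her7, 0.41 with hes6 and -0.28 with her3.

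Among 12906 genes found in 10% or more of MZoep cells, those most like hes6 by the same measure were tbxta (0.43), eve1 (0.42) and cdx4 (0.41), all in the margin score. Those most like her1 were eve1 (0.41), tbxta (0.40) and si:dkey-6d5.4 (0.40), the last at 0.03 in wild type and -0.03 in 5-prime cells. Those most like her7 were the ventral repressor gene ved (0.35), tbxta (0.35) and her1 (0.32). The margin gene tbxta was among the nearest 3 of each. With the dorsal margin score, her1, her7 and hes6 stood at -0.14, -0.21 and -0.18 in MZoep full-length cells. In 5-prime cells these values were -0.28, -0.34 and -0.31, and in wild type 0.31, 0.09 and 0.12. The rise of these genes with the margin score in MZoep was thus not seen with the dorsal margin score. Of the genes in that score, noto was in 50.2% of MZoep full-length cells and chrd in 36.7%. The others were sparser, with gsc in 23.7%, foxa3 in 15.5% and lhx1a in 4.49%, so the score reads the dorsal margin weakly in MZoep.

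Among the genes most like her3 were admp (0.35), which encodes a BMP ligand of the dorsal side, and tdgf1 (0.32). Its lowest correlation was with ved, at -0.42 in MZoep, -0.41 in 5-prime cells and -0.18 in wild type. Those most like her5 were the cyclin gene ccnb2 (0.32), znf395 (0.32) and slf2 (0.27). The closest to her11 were dpm2, bida and lhfpl2a (0.27 to 0.32) and the closest to her6 were si:rp71-62i8.2, nphp4 and lpar6a (0.25 to 0.27), and at such sparse levels these are weak values. With values centred on batch means before ranking, other genes came first for her3 (0.59), her11 (0.37) and her6 (0.42), and znf395 (0.33) for her5. The first genes for hes6, her1 and her7 stayed the same.

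Relatives and pathway genes were taken as lists. Of a list of 21 other her, hes, hey and related genes, 16 had a row in the full-length table and 5 could be compared. Of these 5, 4 had a higher and 1, her13, a lower mean in MZoep, with none past 2-fold. Of 15 compared Notch pathway genes, 10 had a higher mean in MZoep and 5 a lower one, and of all compared genes 60.6% had a higher mean. The feedback gene nrarpa had 6.12 FPKM in MZoep and 1.09 FPKM in wild type (log2 ratio 1.77), and was past 2-fold in each batch, with 2.42, 2.14, 1.64 and 1.23 in p1 to p4. The Notch ligand gene dlb had 0.109 FPKM in MZoep and 1.34 FPKM in wild type (-1.08), in 1.63% and 19.1% of cells. Its ratio was -1.70 in p1, -1.03 in p2 and -0.87 in p4, and none was formed in p3. Of all compared genes, 5.15% were higher in MZoep by 2-fold or more and 2.54% lower. The 3 compared genes of the tle family, which includes co-repressors that hairy-related proteins recruit, had higher means in MZoep, none past 2-fold.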

How the data were processed

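The authors deposited FPKM values for each gene of the full-length cells and UMI counts for each gene of the 5-prime cells. The submitters' processing notes name Bowtie2, RSEM and GRCz10; the sources used here give no versions, UMI collapsing or filters. In the deposited count table, 328 columns hold only 0 and were not used.

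Full-length cells were kept from 1500 genes at FPKM 1 upward, 5-prime cells from 500 genes upward. Batch means were weighted 7.85%, 32.4%, 37.8% and 22% for p1 to p4 in both genotypes, so that batch make-up did not enter the ratio. The pseudocount of 1 FPKM shrinks ratios of low genes. A gene was compared if 5% of cells of either genotype reached FPKM 1. That equal batch names mean shared preparation is not stated. Correlations used ranks within batch in place of the planned centring on batch means, which splits cells at 0 by batch and was replaced after the data were seen. No doublet caller was run. The symbol hes6 matched 2 gene identifiers in the name tables. The neural ectoderm score leaves out 1 planned marker gene, which is not reported here. Text otherwise names the 8 genes, the 3 most correlated with each except her9, and listed genes past 2-fold. Members and lists were chosen with earlier results of these data known. Scripts were tested on these data with values shuffled over the cells of a batch and changes planted in randomly picked genes. They used Python 3.11.15, pandas 2.3.3, numpy 2.4.6 and scipy 1.17.1.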

Additional observations from a re-analysis of the deposited data

Results flagged for a closer look

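The difference in mean her6 level between margin tertiles had opposite signs in the genotypes, in every batch that gave a difference. This contrast was not tested. Its log2 ratio of the upper over the lower tertile was -0.38 in MZoep and 1.62 in wild type. Means in MZoep were 5.08 FPKM in the upper and 6.88 FPKM in the lower tertile, although the transcript was in 26 of 80 cells of the upper and 21 of 80 of the lower. Means in wild type were 9.07 FPKM in the upper and 2.27 FPKM in the lower tertile, in 6 of 15 and 1 of 15 cells. Within MZoep the ratio was -0.59 in p1, -0.04 in p2, -0.88 in p3 and -0.41 in p4. In the 5-prime cells, which are MZoep too, the ratio was 1.09, from 27 UMIs in the upper and 12 in the lower tertile, and between 0.28 and 0.91 under the 4 alternatives tried.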

How the results depend on the processing

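The count of genes higher in MZoep by 2-fold or more, 2 as reported, was 0 with a pseudocount of 10 FPKM or without batch p3. A count of 1 came from mean log2 values, from cells of 4000 genes or more, from pooling cells, from leaving out p1, p2 or p4, and from 2 alternatives chosen after seeing the data, cells of 5000 to 9000 genes and median scaling. Over these alternatives the log2 ratio of her5 stayed between 0.63 and 2.41 and that of her3 between 0.22 and 1.42. For the margin tertiles of MZoep, the 3 higher genes became 1 with 2 equal parts of the cells, and the 1 lower gene became 0 without the highest cell of each tertile, as her3 was then at 0 in the upper one. In wild type the 3 higher genes became 1 with a pseudocount of 10, and 4 with tbxta and tbx16 alone or 2 equal parts, as her7 then passed 2-fold. The 1 lower gene there, her3, became 0 with a score of tbxta and tbx16 alone or a pseudocount of 10. Without the highest cells it was replaced by 2 others, her11 (-1.02) and her5 (-1.09), and her3 had no ratio. With tbxta and tbx16 alone the her3 ratio in wild type changed sign, to 0.48. In 5-prime cells the 1 lower gene became 0 with that score or with a pseudocount of 10. For the neural ectoderm score, 2 equal parts ended the calls of her1 (-0.67) and her6 (-0.90) in MZoep, of her1 (-0.67) and her5 (-0.55) in 5-prime cells and of hes6 (-0.80) and her11 (-0.89) in wild type, and leaving out the highest cells ended those of her1 in MZoep (-0.96) and her5 in 5-prime cells (-0.91). The genotype ratio of her6 was -0.68 with median scaling. The cause was not tested for the other changes. The number of wild-type cells, 3 in p1 and 47 in all, limits every ratio between genotypes. No paired analysis was possible because each genotype is 1 sample and cell numbers do not pair cells.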
